A study of Mus musculus with 32 samples.

Results

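Inguinal fat of female mice with adipocyte-directed loss of Bcl6 is described here through all 790 genes of its count table, measured in 4 WT and 4 AKO libraries. These are 8 of the 32 libraries of the series, and 790 of the 2480 genes listed for any of its 3 adipose comparisons. Every gene of the table was taken, with no further selection. WT mice carried Bcl6 fl/fl alleles (exons flanked by loxP sites) and no Cre. AKO mice carried Bcl6 fl/fl with Adipoq-Cre, a Cre recombinase driven by the promoter of the adiponectin gene, which is active in adipocytes and not in most other cells of a fat pad. Both groups were female and on a C57BL/6 background, and the label of each library names an animal of its own. The labels used here give neither age nor diet. No group carried Cre without the floxed alleles, so loss of Bcl6 cannot be told apart from an effect of Cre or its transgene. The inguinal pad was sampled whole, as poly(A) RNA.

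BCL6 is a zinc-finger protein that binds DNA at a motif close to that of STAT factors and represses transcription by recruiting corepressors. It is best known from germinal-centre B cells and follicular helper T cells, and in liver and fat it opposes genes that STAT5 induces after growth hormone. The inguinal pad is the main subcutaneous white depot of the mouse. It stores triglyceride, secretes hormones such as adiponectin, holds macrophages, vessels and progenitors between its adipocytes, and in females surrounds mammary ducts of keratin-rich epithelium. The study's stated aim was to find genes that BCL6 regulates in adipocytes.

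The 790 genes are those the authors called, 5.83% of the 13546 they tested, and the call was made on the libraries described here. A test on these libraries is therefore not independent evidence that a gene differs, and its use here is to order the genes and show how firmly each holds. Levels below are normalized counts, which are raw counts divided by the authors' size factor for the library. Folds, standard errors and p-values are from edgeR's quasi-likelihood test, with Benjamini-Hochberg adjustment over all 13546 genes and a threshold of 0.05. By fold, 434 genes (54.9%) lay above WT and 356 (45.1%) below. With edgeR 210 rises (26.6% of the 790) and 115 falls (14.6%) passed, together 41.1%. The shares for all 790 genes serve below as the background for counts within a group of genes. Changes were mostly modest: the median size was 1.45-fold for higher and 1.53-fold for lower genes. At least a 2-fold change was seen in 140 genes (17.7%), 86 of them higher and 54 lower. For 704 genes (89.1%), 391 higher and 313 lower, no AKO library lay inside the WT range.

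The scale behind the directions matters for genes with small folds. With TMM scaling within the table, edgeR passed 153 higher and 270 lower, so that 36.2% of calls were higher in place of 64.6%. With DESeq2 size factors computed within the table the numbers were 125 and 315 (28.4% higher), and with the table total as library size 95 and 337 (22.0% higher). These scalings moved the median log2 fold of all 790 genes, 0.30, by -0.09, -0.16 and -0.21, and each is set by genes that were chosen as changed. With the table total 6 genes, none called, took the other sign. The authors' size factors, taken from all their genes, were 0.402, 0.985, 0.736 and 1.02 in WT and 1.19, 1.59, 1.15 and 1.55 in AKO. AKO libraries were thus deeper without exception (1.37 ± 0.233 against 0.786 ± 0.285, mean ± SD, n = 4 per genotype; p = 0.0286 by exact permutation of the labels, two-sided). With counts thinned to the shallowest library, 187 higher and 110 lower genes passed. Counts of the 790 genes summed to 864592 to 4072659 per library, which is not the depth of the whole libraries, and that depth is unknown.

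Calls near the threshold were often lost when a library was left out, and the smaller group also makes the test weaker. Of the 325 called genes, 124 passed in each of the 8 fits that left out a library, 92 of them higher and 32 lower. The counts were 114 higher and 53 lower without WT 1, 106 and 50 without WT 2, 108 and 52 without WT 3, and 154 and 66 without WT 4. They were 120 and 47 without AKO 1, 123 and 58 without AKO 2, 196 and 106 without AKO 3, and 241 and 182 without AKO 4. AKO 4 was the AKO library closest to the WT range in 352 of the 790 genes (44.6%) and AKO 3 in 258 (32.7%), against 96 for AKO 2 and 84 for AKO 1. Among WT libraries, WT 4 lay closest to the AKO range in 305 genes (38.6%). In what follows, a gene said to have held in all 8 fits belongs to the 124, and for other called genes with a fold given, the number of fits that lost the call is given. For most gene groups whose balance depended on the scale, the higher and lower calls under the other scalings are also given. A call of a single gene that was lost with another scaling is marked in some cases only.

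Bcl6 itself was higher in the libraries labelled AKO. Its normalized counts were 1442, 1176, 988 and 1004 in WT and 2618, 2295, 2799.8 and 2555 in AKO, with no overlap (chromosome 16, 23965052 to 23988852, minus strand, mm10). The log2 fold was 1.16 ± 0.12 SE (edgeR adjusted p = 0.000829) and held in all 8 fits. The counts cover the whole gene, so reads from a transcript without the floxed exons count as Bcl6 reads, and the values neither check the genotype labels nor measure BCL6 protein. In RefSeq (GRCm38.p6) Bcl6 has promoters at 2 starts, and the letters TTCNNNGAA, a core that STAT5 and BCL6 motifs share, occur in both. They are shown because Bcl6 is the targeted gene, with 250 bases before and 50 after each start on the minus strand. Capitals mark each match to the core, which reads alike on both strands.
Bcl6, chr16:23988803-23989102: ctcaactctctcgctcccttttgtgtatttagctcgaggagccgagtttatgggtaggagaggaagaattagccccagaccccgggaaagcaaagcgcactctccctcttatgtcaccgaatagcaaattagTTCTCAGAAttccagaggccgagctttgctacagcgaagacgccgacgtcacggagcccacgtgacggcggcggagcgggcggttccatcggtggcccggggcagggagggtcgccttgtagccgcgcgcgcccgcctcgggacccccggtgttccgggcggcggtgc
Bcl6, chr16:23981234-23981533: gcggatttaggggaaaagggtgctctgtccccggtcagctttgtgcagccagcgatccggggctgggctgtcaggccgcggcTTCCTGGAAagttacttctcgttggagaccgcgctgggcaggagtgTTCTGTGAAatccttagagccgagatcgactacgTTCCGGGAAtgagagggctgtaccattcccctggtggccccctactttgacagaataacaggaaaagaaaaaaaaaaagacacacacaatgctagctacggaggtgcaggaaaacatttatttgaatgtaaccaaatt
The first window holds 1 match, 118 bases before the start, and the second holds 3, at 168, 122 and 88 bases before it. For comparison the promoter of Mfsd7c, whose transcript rose 7.14-fold, holds 0 matches.
Mfsd7c, chr12:85746289-85746588, plus strand: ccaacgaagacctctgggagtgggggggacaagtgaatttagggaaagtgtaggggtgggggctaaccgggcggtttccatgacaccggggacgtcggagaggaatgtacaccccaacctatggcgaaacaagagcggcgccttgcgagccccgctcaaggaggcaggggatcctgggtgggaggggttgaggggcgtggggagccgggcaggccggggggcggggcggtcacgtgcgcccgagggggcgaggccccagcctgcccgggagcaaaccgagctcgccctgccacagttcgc
The core was found in 8.30% of all 32851 promoters, in 5.74% of 418 promoters of listed genes with a higher fold and in 5.51% of 345 with a lower fold. A promoter could be matched for 589 of the 790 genes. These are matches of letters in 300 bases and say nothing of binding.

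Adipoq, the adiponectin gene whose promoter drives Cre, lay about 819 kb from Bcl6 on chromosome 16 and was also higher. It had 50391, 45319.6, 49112 and 45631 normalized counts in WT and 65590.5, 65915, 74579 and 61301 in AKO, a 1.40-fold difference without overlap (edgeR adjusted p = 0.0123), which was lost with DESeq2 size factors or the table total. Adipoq is a defining adipocyte marker and one of the 10 genes with the highest mean of the table, as are Car3 and Lpl. Of 33 protein-coding genes within 2 Mb of the Adipoq start, 6 were in the table. Eif4a2, a translation initiation factor gene 39.1 kb away, rose 1.47-fold, from 10506 ± 197 to 15440.2 ± 831 (SD, n = 4), and Rfc4 at 32.6 kb had a log2 fold of 0.56 ± 0.17 SE and was not called. Ehhadh and Igf2bp2, at 1385 and 1088 kb, had log2 folds of -0.57 and -0.38. Neither Xist nor a Y-linked gene is among the 790, so the labelled sex could not be checked.

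Signalling receptors and their regulators gave several of the largest rises. Gcgr, the glucagon receptor gene (chromosome 11, 120530699 to 120538986, plus strand), had 9.96, 34.5, 27.2 and 41.2 normalized counts in WT and 279, 214, 499 and 256 in AKO. The groups were far apart, and the log2 fold was 3.35 ± 0.36 SE (edgeR adjusted p = 0.000829). Gpr179, an orphan receptor gene best known from the retina, was near the floor in WT with 14 raw counts over the 4 libraries and had 989 over the 4 AKO libraries. After thinning these were 3 and 286 counts. Mc2r, the receptor gene for adrenocorticotropic hormone, rose 2.01-fold from 632 ± 63.6 to 1266 ± 182. All 3 genes held in all 8 fits. Ptgfr, the prostaglandin F receptor gene, rose 1.82-fold (edgeR adjusted p = 0.031, lost in 6 of 8 fits). Gcgr overlaps a gene on the opposite strand, as do Rgs16, Kcnj15, Klhl2, Acsm3 and Krt8 below, and the strand setting of the counting is not given, so such counts may hold reads of the partner. Of the 12 listed G-protein-coupled receptor genes 7 had a higher fold, 4 of them called, and 5 a lower fold, 2 of them called. With TMM 4 were called higher and 3 lower, with DESeq2 size factors 4 and 5, and with the table total 3 and 5.

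Inside the cell, Rgs16, which speeds the shutdown of G-protein alpha subunits (chromosome 1, 153740349 to 153745468, plus strand), went from 89.6, 102, 137 and 98.1 to 761, 710.0, 847 and 809. The spread within either group was small beside the 7.28-fold change, and Rgs16 and Mfsd7c shared the lowest edgeR adjusted p of the table, 6.42e-06. Rgs7, another member of that family with a neuronal expression pattern, went the other way, from 508 ± 67.9 to 207 ± 34.2. Gnai1, an inhibitory alpha subunit gene, rose 1.42-fold, and Adcy3, an adenylate cyclase gene of adipocytes, rose by 0.58 on the log2 scale. Both held in all 8 fits, although Gnai1 lost its call with the table total. Of the 6 listed genes for G proteins and their regulators, 4 rose and 1 fell. The calls were 3 and 1 with TMM or DESeq2 size factors, and 2 and 1 with the table total. Arhgef37, a guanine nucleotide exchange factor gene, rose 5.54-fold, from 69.2 ± 20 to 392 ± 132, and Srgap3, a GTPase-activating protein gene, 2.65-fold. Klb encodes beta-klotho, the co-receptor that lets cells sense FGF21. It had 1795, 1637, 1731 and 1757 in WT and 3656, 3694, 3722 and 4418 in AKO, a 2.24-fold step (edgeR adjusted p = 5.19e-05).

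The table holds 29 solute carrier genes, of which 8 rose and 7 fell (median log2 fold 0.33, against 0.30 for all 790). That near balance shifted to 6 higher and 10 lower with TMM, 4 and 11 with DESeq2 size factors, and 4 and 12 with the table total. Mfsd7c, a membrane transporter gene of the major facilitator family (chromosome 12, 85746539 to 85813585, plus strand), had 127, 88.4, 126 and 117 in WT and 884, 842, 704 and 809 in AKO. Slc7a10, an exchanger of small neutral amino acids that marks white adipocytes, rose from 3137 ± 228 to 8097 ± 824, 2.58-fold (edgeR adjusted p = 3.81e-05). Slc5a3, the myo-inositol transporter gene, rose 3.34-fold from 3236 ± 551. It lies inside Mrps6 on the same strand, and Mrps6, a mitochondrial ribosomal gene, was 2.25-fold higher, so reads of the pair may be split between them. Slc15a5 rose 5.46-fold. Among the falls, Slc2a13, a proton-coupled myo-inositol transporter gene, went from 271 ± 31.2 to 157 ± 8.67 and held in all 8 fits, whereas Slc44a4 was 2.37-fold lower and lost its call in 1 of 8. Slc27a2, a fatty acid transport and very-long-chain acyl-CoA synthetase gene, was 3.48-fold lower at low levels (62.8 and 18.3), a call lost in 4 of 8 fits.

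Kcnj15 encodes an inwardly rectifying potassium channel (chromosome 16, 95257558 to 95300260, plus strand) and changed most among channel genes. Its counts were 269, 298, 169.7 and 267 in WT and 1804, 2398, 2329 and 2368 in AKO, an 8.86-fold rise in which AKO 1 stood below the other AKO libraries yet far above WT. P2rx5, an ATP-gated channel gene used as a surface marker of brown and beige adipocytes, fell by 1.17 on the log2 scale, from 541 ± 81.4 to 239.6 ± 50.6. Of the 12 listed ion channels 2 rose and 3 fell, and 1 and 4 or 5 under the other scalings. The vitamin and metal carriers also split. Ttpa, the alpha-tocopherol transfer protein gene, rose from 314 ± 25.5 to 1133 ± 141, 3.62-fold with a narrow spread (edgeR adjusted p = 1.83e-05). Tfr2, a transferrin receptor gene known for iron sensing in liver, was 4.36-fold lower, at 94.6, 63, 97.8 and 146 in WT and 22.8, 14.5, 45.1 and 12.2 in AKO. Tfrc, the main transferrin receptor gene, was 1.49-fold higher. Both iron receptor calls were fragile, Tfr2 being lost in 5 of 8 fits and Tfrc in 7.

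**Figure D1:**
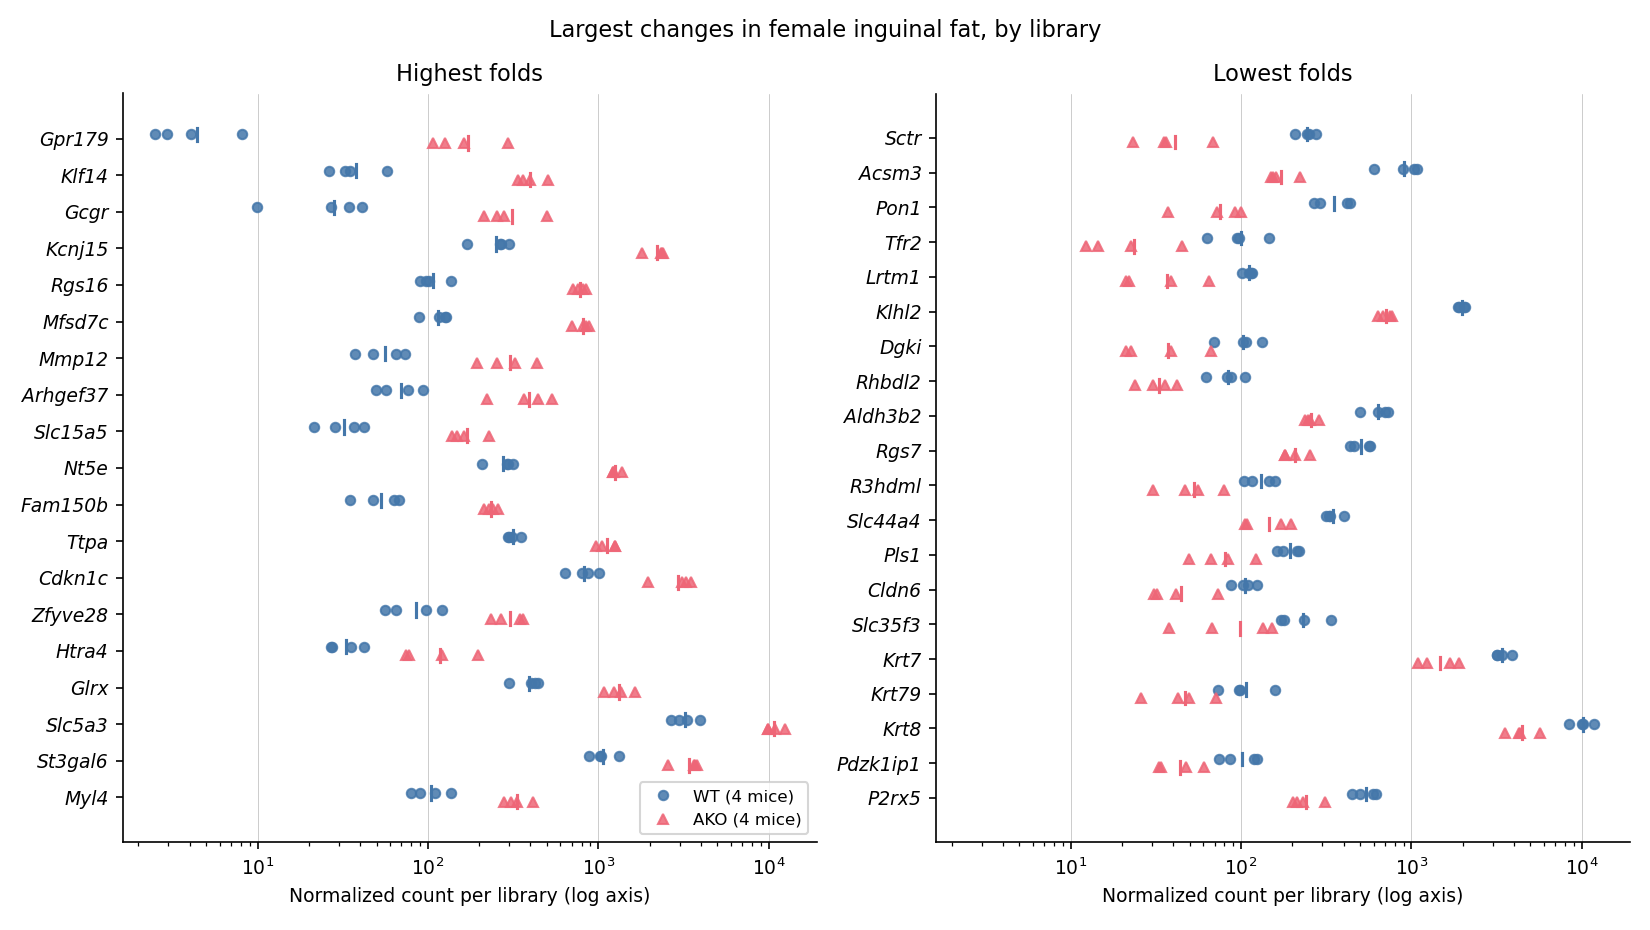
Normalized counts per library (log axis) for 19 of the 20 genes with the highest (left) and the 20 with the lowest (right) edgeR log2 fold, limited to genes whose groups do not overlap and whose mean reaches 50; circles are the 4 WT mice, triangles the 4 AKO mice and bars the group means. Rgs16, Mfsd7c and Klhl2 form tight clusters within each group, while Dgki and Slc35f3, which were not called, spread widely in AKO.

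The plot of the largest changes by library also holds enzyme genes. Nt5e encodes CD73, which makes adenosine outside the cell. It went from 316, 289, 295 and 207 to 1227, 1373, 1229.8 and 1214, a log2 fold of 2.20 ± 0.13 SE (chromosome 9, 88327197 to 88372092, plus strand; edgeR adjusted p = 1.46e-05). St3gal6, a sialyltransferase gene, rose 3.23-fold from 1069.5 ± 189 to 3434 ± 584, and Glrx, which encodes glutaredoxin, 3.35-fold. Fam150b, whose product activates the ALK receptor, rose 4.27-fold, and Myl4, a myosin light chain gene known from the atrium, 3.15-fold. These 5 genes held in all 8 fits. Zfyve28 (3.48-fold) held as well, whereas Htra4, a secreted serine protease gene, was 3.44-fold higher and lost its call in 4 of 8.

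Sctr, the secretin receptor gene (chromosome 1, 120006894 to 120063536, plus strand), had one of the largest falls. Its counts were 276, 252, 206 and 245 in WT and 36.3, 35.2, 68.6 and 23.2 in AKO, 6.06-fold lower with AKO 3 the highest of its group (edgeR adjusted p = 0.000934). Acsm3, a mitochondrial medium-chain acyl-CoA synthetase gene (chromosome 7, 119760923 to 119787513, plus strand), went from 1043, 889, 1086 and 601 to 153, 151, 222 and 161. Pon1, the paraoxonase gene of lipoproteins (chromosome 6, 5168090 to 5193946, minus strand), fell 4.67-fold, from 353 ± 85.9 to 75.4 ± 28. Klhl2, which hands substrates to a cullin-3 ubiquitin ligase (chromosome 8, 64739675 to 64850017, minus strand), had counts of 1917, 1869.8, 2034 and 2075 in WT and 749.6, 772, 639 and 682 in AKO (edgeR adjusted p = 1.46e-05). The unnamed transcript A830018L16Rik went from 74.7, 103, 141 and 140.2 to 12.6, 8.8, 27.8 and 16.8. All 5 held in all 8 fits. Lrtm1, Rhbdl2, R3hdml, Pls1 and Pdzk1ip1 were 2.27-fold to 3.07-fold lower and lost their calls in 4 to 7 of the 8 fits. Dgki, Cldn6, Slc35f3 and Krt79 are among the 20 lowest folds but did not pass, with edgeR adjusted p from 0.0521 to 0.165.

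Lipid genes moved in both directions. Of the 8 listed genes of fatty acid synthesis and desaturation 3 rose and 1 fell, whereas each other scaling called 2 higher and 4 lower. Fads1, the delta-5 desaturase gene, had 3603, 3324, 3742 and 3263 in WT and 6159, 6266, 7371 and 6305 in AKO, and Fads3, its neighbour in the same gene cluster, rose 1.75-fold from 5975 ± 762. Elovl6, which elongates palmitate, was 1.66-fold higher at 40317 ± 6629 (lost in 6 of 8 fits). Fads2, the delta-6 desaturase gene, had means of 696 and 1001 and was not called (edgeR adjusted p = 0.079). Aacs, which makes acetoacetyl-CoA from ketone bodies, fell from 7606, 7605, 8868 and 7504 to 3373, 3596, 4899 and 3731, 2.03-fold, with no library in between.

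The acyl-CoA genes split by enzyme. The thioesterase genes Acot2 and Acot4, which release free fatty acids from acyl-CoA, rose 1.86-fold and 2.81-fold, and Acot3 went from 4 raw counts over the WT libraries to 446 over the AKO libraries, or from 2 to 139 after thinning. The 3 genes are paralogs side by side on chromosome 12, and Acot3 and Acot4 share an overlapping annotated gene, so their counts are uncertain apart from each other. The synthetase genes Acsm3 and Acsf2 fell, Acsf2 from 3088 ± 323 to 2166 ± 155 (lost in 1 of 8 fits). Among 7 genes of fatty acid oxidation 5 had a lower and 2 a higher fold. Ehhadh, a peroxisomal beta-oxidation gene, was the called member, 1.48-fold lower (1579, 1486, 1456 and 1401 against 965, 924, 1054 and 1051). Acadl and Crat, which serve mitochondrial oxidation, and Ppara, the receptor that induces this pathway, had log2 folds of -0.44, -0.39 and -0.74, and their coactivator genes Ppargc1a and Ppargc1b 0.79 and 0.88, none called (edgeR adjusted p from 0.057 to 0.0922). With TMM scaling 4 of the 7 were called lower, and with either other scaling 5.

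The 5 listed genes of lipolysis, of which 3 rose and 1 fell (1 and 2 with the table total), include parts of the cyclic AMP pathway that starts it. Prkar2b, the regulatory subunit of protein kinase A that predominates in fat, was at 15245, 12938, 13565 and 14445 in WT and 20274, 22808, 21046 and 17787 in AKO, 1.46-fold higher (lost in 2 of 8 fits), beside the rises of Gnai1 and Adcy3. Adora1, the receptor through which adenosine restrains lipolysis, fell by 0.77 on the log2 scale, from 2327 ± 387 to 1362 ± 201 (lost in 1 of 8 fits). Adrb3, the beta-3 adrenergic receptor gene, had 12633, 12950.3, 14492 and 13943 in WT and 7823, 9760.1, 12678 and 8007 in AKO, and AKO 3 reached the WT range (edgeR adjusted p = 0.115). For fatty acid uptake, Lpl, the lipoprotein lipase gene, was 1.33-fold higher at 173828 ± 2578, just outside the threshold (edgeR adjusted p = 0.0531), and Vldlr, Acsl5 and Gyk had log2 folds of -0.48, -0.27 and -0.36 without a call. Plin5, a lipid droplet coat gene of oxidative cells, had 433, 463, 459 and 785 in WT and 333, 212, 347 and 165 in AKO (edgeR adjusted p = 0.0799).

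The table holds 16.1% of the listed insulin genes and 15.8% of the listed growth hormone genes, beside 5.83% of all genes tested. Of 31 insulin signalling and glucose uptake genes 5 were in the table. Akt1 rose 1.38-fold (3640.1, 4127, 3754 and 3822 against 5175, 5053, 5994 and 5028, lost in 2 of 8 fits) and the insulin receptor gene Insr 1.25-fold (lost in 6), and neither was called with DESeq2 size factors or the table total, under which 2 of the 5 genes were called lower. Inppl1, a phosphatase gene that opposes insulin signalling, had a log2 fold of -0.26, not called. Of 19 growth hormone and STAT5 genes 3 were present, namely Bcl6, Igf1 and Igfbp4. Igf1, a classic STAT5 target, fell by 0.50 on the log2 scale, from 4850.1, 5538, 5055 and 6299 to 3910.5, 4023, 3577 and 3889.5, and Igfbp4, which binds the hormone, rose 1.41-fold. Each lost its call in 2 of 8 fits, and Igfbp4 also with DESeq2 size factors or the table total. Among adipokine and identity genes Sfrp5, a secreted Wnt antagonist of adipocytes, was 1.72-fold higher (lost in 5 of 8 fits and with the table total). Car3, the most abundant transcript of the table, had means of 262755 and 309318 (edgeR adjusted p = 0.111), and Rxra had a log2 fold of -0.19, not called. The leptin gene was not among the 790.

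Other metabolic genes that held in all 8 fits included Fmo1, a flavin monooxygenase gene (4409.6 ± 300.0 against 2902 ± 273), Aldh4a1 of proline breakdown (1.57-fold lower) and Ldhd, which oxidises D-lactate (1.52-fold lower). Got2, the mitochondrial aspartate aminotransferase gene, rose 1.38-fold but not with the table total. Atp5g1, a gene for the membrane ring of ATP synthase, rose 2.95-fold, from 956, 1417, 1040.1 and 1146 to 3408, 3499, 4239.6 and 2375, and the mitochondrial ribosomal genes Mrps6 and Mrpl45 were also higher (Mrpl45 1.35-fold, lost in 7 of 8 fits and with each other scaling). Of 12 genes of steroid and xenobiotic metabolism 2 rose and 5 fell (median log2 fold -0.31), and 8 were called lower under each other scaling. Egln3, a prolyl hydroxylase gene that marks the hypoxia factors for degradation, rose 2.23-fold from 423 ± 40.3 to 942 ± 139.8. Egln3 was chosen after its values were seen, as were Klb, Eif4a2, Rfc4 and Igf2bp2 above and the epithelial and opposite-direction genes named below without being called.

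The direction of matrix genes differed by kind. Of 14 listed proteases and inhibitors, 13 had a higher fold and 7 were called, none lower (median log2 fold 0.49). Among all 790 genes 54.9% had a higher fold, 26.6% were called higher and 14.6% lower. Mmp12, the macrophage elastase gene (chromosome 9, 7344381 to 7369499, plus strand), had 64.7, 47.7, 73.3 and 37.3 in WT and 255, 439.6, 195 and 324 in AKO, 5.59-fold higher with a wide AKO spread, and held in all 8 fits. Adam3 rose 4.11-fold at low counts (9.57 ± 1.61 to 40.6 ± 4.56). Mmp9, the gelatinase B gene, Ctsl, a cathepsin gene, and Adamtsl5 were 1.78-fold, 1.34-fold and 1.42-fold higher, with calls lost in 6 to 7 of 8 fits and with each other scaling tried. Under each other scaling 3 of the 14 were called higher and 1, Adam10, lower, and the fits without a library called 2 to 10 higher.

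Among 8 matricellular genes 5 rose and 1 fell, against 3 and 2 with TMM or DESeq2 size factors and 2 and 2 with the table total. Smoc1, a secreted calcium-binding matrix gene, rose with a narrow spread, from 5859, 5179, 5359 and 5754 to 10443, 11816, 11750.4 and 11092 (2.04-fold, edgeR adjusted p = 5.19e-05). Ogn, which encodes the small proteoglycan osteoglycin, went from 3777, 4159, 3302 and 5368 to 11682, 9549, 6829 and 8029.8, with AKO 3 and AKO 4 the lowest of their group. Fbln5 was 1.54-fold higher and Ltbp2, a binding partner of elastic fibres, 1.57-fold lower (each lost in 5 of 8 fits). Collagen and basement membrane genes divided into 4 with a higher and 4 with a lower fold, of which 2 and 1 were called. With TMM 2 were called higher and 3 lower, with DESeq2 size factors 1 and 4, and with the table total 0 and 4. Col6a1 and Nid2 rose 1.58-fold and 1.76-fold (lost in 4 and 3 of 8 fits). Of the growth factors Fgf13 and Bmp3 rose 2.02-fold and 2.17-fold, Bmp3 from 392 ± 87 to 854 ± 167, and Nkd1, an inhibitor of Wnt signalling, 2.28-fold.

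Of 5 complement genes 3 fell and 1 rose, and of 10 cytokine, chemokine and acute-phase genes 3 fell and 3 rose (4 lower and 2 or 3 higher under the other scalings). C3, the central complement component and an abundant product of fat, went from 44032, 48664, 44891 and 37107 to 28215, 24167, 23236 and 21943, 1.79-fold lower (edgeR adjusted p = 0.00203). Hp, the haptoglobin gene, fell by 1.07 on the log2 scale, from 21778 ± 5255 to 10410.5 ± 1597, and Itih4 4.38-fold from 74.9 ± 18.1. These 3 held in all 8 fits. C4b and C2 were 1.72-fold and 1.35-fold lower (each lost in 3 of 8 fits), whereas Cd59a, which blocks the last complement step, was 1.35-fold higher, a call lost in 6 of 8 fits and with each other scaling. Orm2, an acute-phase glycoprotein gene, rose 2.65-fold at low counts and the eosinophil attractant genes Ccl11 and Ccl24 1.69-fold and 1.63-fold (lost in 2 and 5 of 8 fits, and Ccl24 also with the table total). The interferon-inducible genes that held in all 8 fits moved apart, Gbp3 1.78-fold higher and Ifi27l2a 2.05-fold lower (13607, 9318, 15687 and 14386 against 6268, 6410.3, 6691 and 6432).

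The imprinted genes of the table, which are expressed mainly from one parental copy, all had a higher fold. The table holds 7 of the 60 on the list, 4 were called (Klf14, Cdkn1c, Nap1l5 and Ndn), and the median log2 fold was 1.17 against 0.30 for all 790. For these and the cell-cycle genes below, the shares over all 790 were 54.9% with a higher fold and 26.6% called higher. Klf14, a maternally expressed Krüppel-like factor gene (chromosome 6, 30956023 to 30959078, minus strand), had 34.9, 26.4, 32.6 and 57.9 in WT and 396, 337, 360.2 and 504 in AKO. Cdkn1c, which encodes the cell-cycle inhibitor p57 (chromosome 7, 143458339 to 143461050, minus strand), went from 1011, 798, 869 and 636 to 3287, 3083, 3488 and 1947, with AKO 4 lowest of its group. Nap1l5 rose 2.25-fold, from 161 ± 20.9 to 361 ± 38.8, and Ndn, the necdin gene, 2.02-fold. These 4 stayed called under each other scaling and in all 8 fits. Plagl1, Zim1 and Sgce had log2 folds of 0.76, 1.35 and 0.32, not called. Of the 7 genes Sgce alone overlapped between the groups, and 89.1% of all 790 genes were without overlap. Cell-cycle genes in the table were also higher in all 5 cases: beside Cdkn1c, the inhibitor gene Cdkn2c (1.52-fold, lost in 6 of 8 fits) and the growth-arrest gene Gadd45a (1.92-fold, lost in 1) were called, and the cyclin genes Ccnd2 and Ccnd3 had log2 folds of 0.54 and 0.34, not called.

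**Figure D2:**
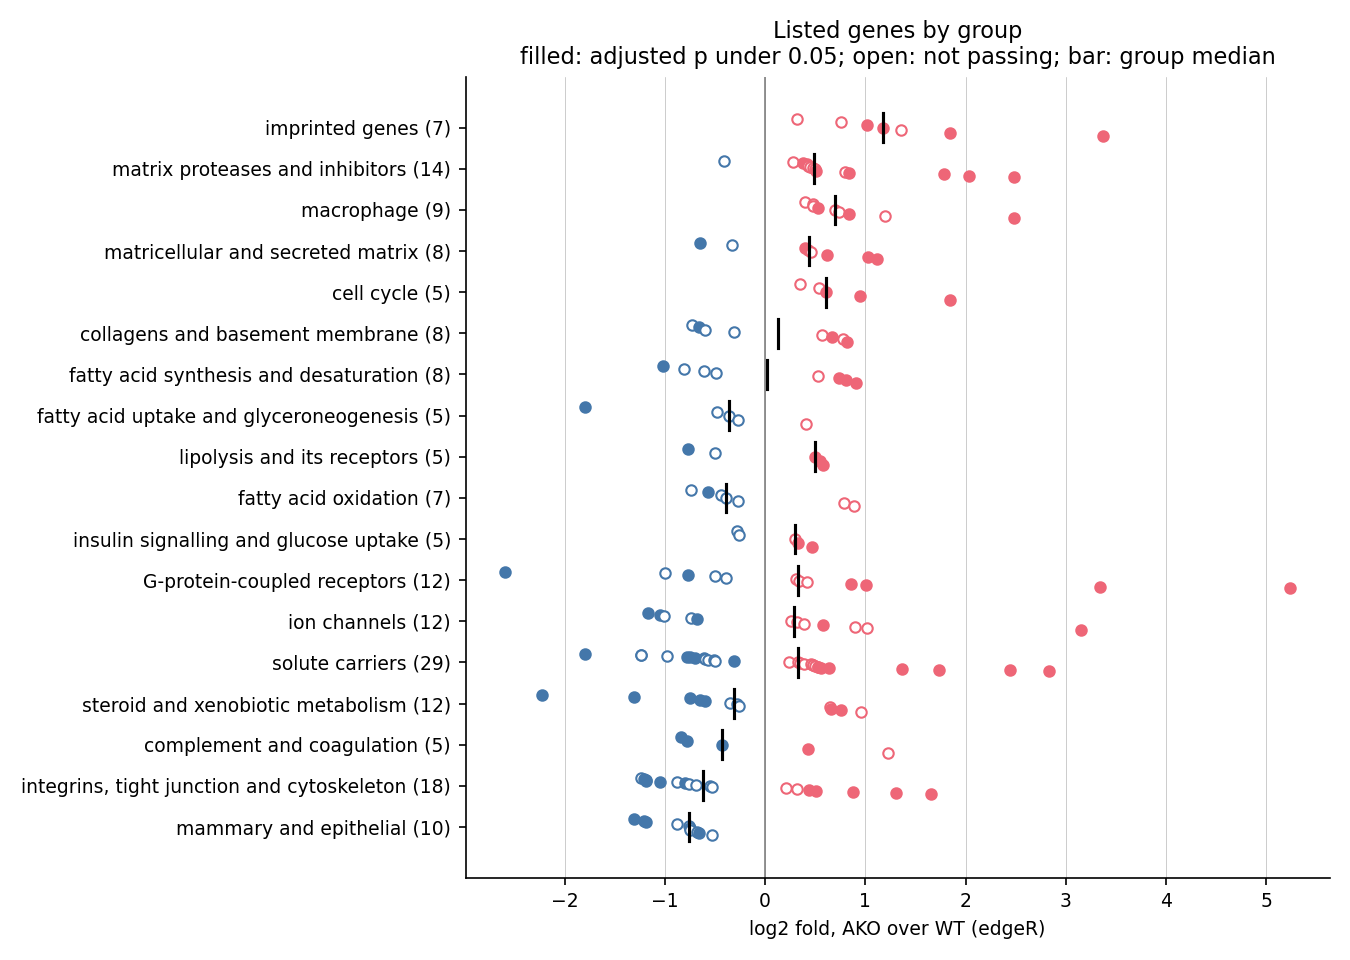
Log2 fold (AKO over WT, edgeR) of every listed gene of 18 groups, with the number of genes in brackets; filled points passed an adjusted p of 0.05, open points did not, and bars are group medians. The imprinted genes lie above 0 and the mammary and epithelial markers below it, while solute carriers, receptors and channels spread to both sides.

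The genes of the table that mark mammary and other epithelium were lower in AKO. Of 43 markers on the list 10 were in the table and all 10 had a lower fold, 4 of them called (median log2 fold -0.76). Among all 790 genes 45.1% had a lower fold and 14.6% were called lower. Krt8, a keratin gene of simple epithelia, had 10079, 11879.9, 8473 and 10238 in WT and 3531, 4284, 4334 and 5703 in AKO. Krt7, another keratin gene of ducts, had 3194, 3917, 3175 and 3398 in WT and 1236, 1089, 1681 and 1910.0 in AKO. Neither pair overlapped, and AKO 4 was the highest AKO library for both. Aldh3b2 fell by 1.31 on the log2 scale and the milk casein gene Csn3 by 0.66 (lost in 7 of 8 fits). Trp63, a factor of basal epithelium, and Cldn7, Spint1, St14 and Trps1 had log2 folds from -0.88 to -0.53, not called here, and with the table total all 10 were called lower. Summed over the 10 genes, normalized counts ran from 19621 to 23539 in WT and from 8693 to 13718 in AKO. In whole tissue, fewer cells of a type and less RNA per cell cannot be told apart, and the part of these markers in the other results was not tested. Without these 10 genes the called genes numbered 210 higher and 111 lower. Runx1 and Tfap2c, transcription factors of that epithelium among others, had log2 folds of -0.63 and -0.63, not called, nor were Cldn6 and Krt79 (log2 folds -1.24 and -1.19).

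The macrophage markers that the table holds had higher folds. Of 35 on the list 9 were in the table, all with a higher fold (median log2 fold 0.70). Of the 9, 3 were called (1 to 5 without a library), beside 26.6% of all 790 genes called higher. The other markers were not among the genes the authors called. Mmp9 and Mmp12 are also on the protease list. Csf1r, the receptor that macrophages need to live, had 3712, 3675, 4731 and 4208 in WT and 5979.6, 6565, 4701 and 6261 in AKO (edgeR adjusted p = 0.0481, lost in 7 of 8 fits), and AKO 3 lay inside the WT range. Cd163, a scavenger receptor of resident macrophages, had means of 1509 ± 164 and 2517 ± 673 and Mertk 459 ± 42.1 and 745 ± 168, neither called (edgeR adjusted p = 0.0589 and 0.0502). The others called were Mmp9 and Mmp12, and with each other scaling Mmp12 alone was called. The summed normalized counts of the 9 genes were 17062 to 20619 in WT and 21443 to 29922 in AKO. AKO 2 was highest and AKO 3 lowest of its group. The part of macrophages in the other results was not tested. No lymphoid, muscle, or erythroid, granulocyte or mast marker of the lists is in the table. Cspg4, a marker of mural cells and progenitors, fell by 0.94 on the log2 scale (2654 ± 201 to 1387 ± 214), and Lrrn4, a mesothelial marker, was 2.19-fold higher (lost in 6 of 8 fits).

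**Figure D3:**
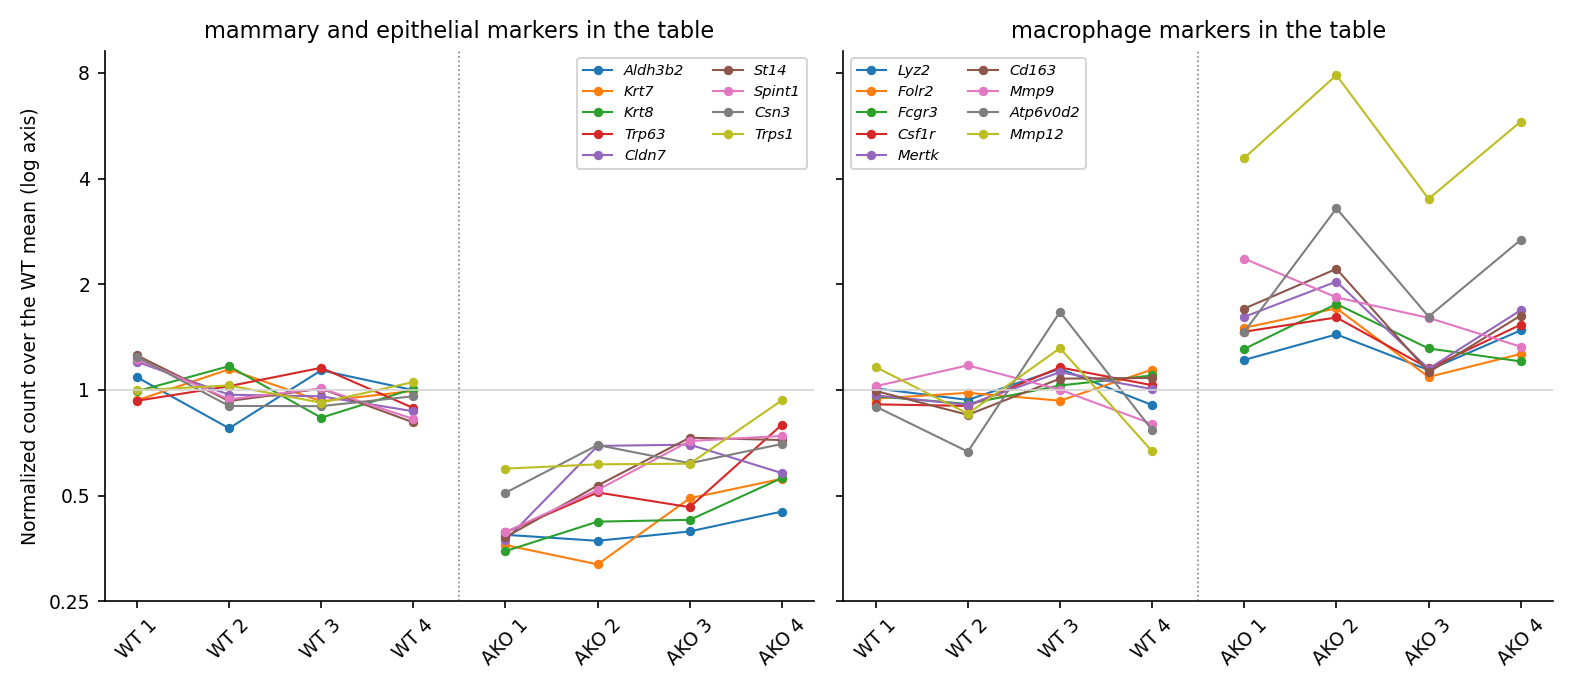
Normalized counts of 9 of the 10 mammary and epithelial markers (left) and the 9 macrophage markers (right) that the table holds, each divided by its WT mean and shown per library on a log axis. Epithelial markers sit below 1 in all 4 AKO libraries, and macrophage markers sit above it there, with AKO 3 the lowest AKO library for 6 of the 9.

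Male inguinal fat was measured in other mice, 4 WT and 4 AKO of the same genotypes, in a table normalized separately. The authors listed 1074 genes there, and 290 are shared with females (36.7% of the female and 27.0% of the male list). All 290 had the same direction. By direction, 46.1% of the female genes with a higher fold were also in the male list, against 25.3% of those with a lower fold. Of genes that differed at least 2-fold, 54 of the 86 higher and 16 of the 54 lower were shared. Imprinted genes were in the male list in 5 of 7 cases, solute carriers in 14 of 29, epithelial markers in 1 of 10 and macrophage markers in 0 of 9. Absence from the male list does not show that a gene did not respond there. Kcnj15, Acsm3, Ttpa, Cdkn1c and Mmp12 are large female changes that are not among the male genes.

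For shared genes the effect itself can be set against the spread. The median absolute difference of log2 fold between the sexes was 0.17, with a median standard error of 0.17, and the fold was larger in males for 183 genes and in females for 107. The interaction of sex and genotype passed for 5 of the 290 genes (1.72%). These numbers cover only genes listed for both sexes, so a gene that responded in a single sex could not enter. Mfsd7c had a log2 fold of 2.84 ± 0.14 SE in females and 4.14 in males, a female minus male difference of -1.30 ± 0.20 SE (edgeR adjusted p = 0.00101), with WT levels of 115 ± 18.1 in females and 25 ± 4.23 in males. Srgap3 and Fads1 also rose in both sexes, and by less in females (1.40 against 2.61, and 0.91 against 1.54). Zim1 had 1.35 against 3.73. Rgs7 is the member of the 5 that fell more in females (-1.31 against -0.58). Sex cannot be told apart from the set of mice, which differ in animal number range, and the count was 2 without female AKO 1 or AKO 2 or male WT 3, AKO 1 or AKO 3, and 3 without female WT 1 or WT 2.

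**Figure D4:**
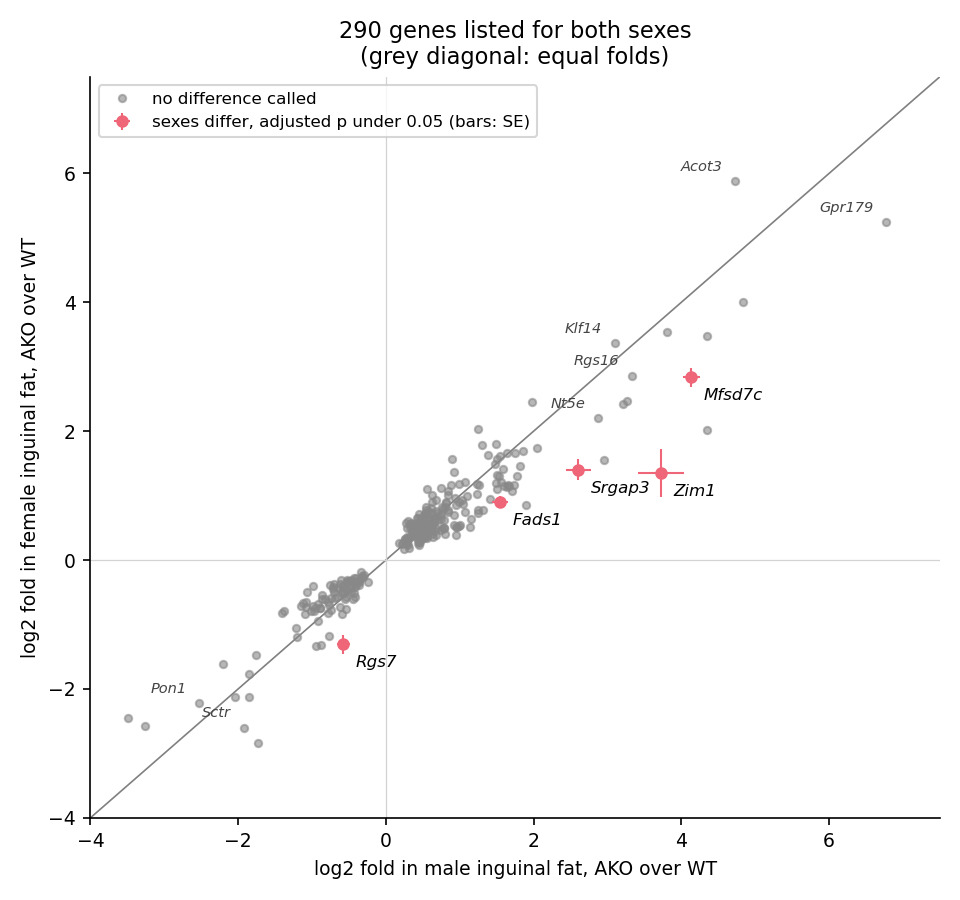
Log2 fold of AKO over WT in male (x axis) and female (y axis) inguinal fat for the 290 genes listed for both; the diagonal marks equal folds, and red points with SE bars are the 5 genes whose sex by genotype term passed. Points lie in the lower left and upper right quadrants, and Mfsd7c, Srgap3 and Zim1 fall below the diagonal.

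In male perigonadal fat, taken from the same mice as the male inguinal samples, the authors' deposited table shares 267 genes with the female list (33.8% of it and 17.9% of the 1488 listed there). Of these 260 had the same direction. The 7 that went opposite ways are Lrrn4, Syp, Emp2, Nck2, Basp1, Tmem176a and Sh3glb1. Lrrn4, the mesothelial marker, had a log2 fold of 1.13 ± 0.24 SE in female inguinal fat, against -0.91 ± 0.20 SE in perigonadal fat in the authors' deposited table. Imprinted genes were in the perigonadal list in 3 of 7 cases and solute carriers in 12 of 29. Epithelial markers were there in 2 of 10 cases and macrophage markers in 2 of 9. Every shared gene of these 4 groups had the same direction as in female inguinal fat. Listed in all 3 adipose comparisons were 184 genes, 183 of them in one direction, 121 higher and 62 lower. Large changes among these include Rgs16, Mfsd7c, Nt5e, Klf14 and St3gal6. Nt5e, for example, had a log2 fold of 2.20 ± 0.13 SE in females, 2.87 ± 0.12 in male inguinal fat and 3.00 ± 0.16 SE in perigonadal fat, the last in the authors' deposited table. St3gal6 had 1.69 ± 0.15 SE, 1.86 ± 0.09 and 2.48 ± 0.13 SE in that order, the last in the authors' deposited table. In neither other list were 417 of the 790 genes (52.8%), 185 higher and 232 lower. Among these the largest called changes with a mean of at least 50 include Kcnj15, Mmp12, Fam150b, Ttpa and Cdkn1c among the rises and Acsm3, Rhbdl2, R3hdml and Slc44a4 among the falls, as well as the epithelial gene Krt8.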

How the data were processed

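Bulk RNA sequencing of inguinal fat from 4 WT and 4 AKO female mice was described. Per the labels' protocols, RNA was purified with Trizol and RNeasy columns, and TruSeq Stranded mRNA libraries were prepared. STAR, DESeq2 and the mm10 build are named in the submitters' processing notes, with no versions; the counting tool, annotation and strand setting are not given there. The authors deposited raw counts per gene for the genes they called, with no normalization. Their comparison tables, per the file headers, hold a mean signal (counts divided by size factors), log2 fold changes, and p-values before and after adjustment.

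Size factors were solved from the authors' mean signal and used as offsets in edgeR 4.0.16 (R 4.3.3, quasi-likelihood test). P-values were adjusted over the 13546 genes the authors tested. SE is the log2 fold divided by the square root of F. Levels are counts divided by size factors. Gene positions came from GENCODE M21 (785 of 790 genes placed). Of the 790 genes, 319 overlap another annotated gene, 42 of them one on the same strand. The sex by genotype term was fitted over the 290 genes in both inguinal tables. The procedure was tested on simulated counts for the female comparison (790 genes, 200 changed): 91% of genes changed by 1 on the log2 scale and 99% of those changed by 2 were called, and 0% of the 590 unchanged. Smaller changes, which most of the 790 genes had, were not simulated, so these shares do not cover them. With adjustment over 13546 genes, few unchanged genes could have passed.

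The members and gene lists were chosen with earlier results of these data known, and 4 lists after values were seen. Named genes were Bcl6 and Adipoq; the 20 highest and 20 lowest folds without overlap at a mean of at least 50, unnamed transcripts left out; from each list the members with the lowest p, 6 at most; the 10 highest means; genes with at most 20 raw counts over a genotype; and the 10 leading genes by sex difference, by smallest fold over the 3 adipose comparisons, and by spread within a group. Exceptions are stated, and some genes that met the rule are not reported here. Alternatives were 3 other scalings, DESeq2 1.42.0, filtering, thinning, a replicate block, leaving out each library, and leaving out the epithelial markers, the last added after seeing the data. P-values measure the spread between these mice. Male perigonadal values are the authors' own.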

Additional observations from a re-analysis of the deposited data

Results flagged for a closer look

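Among 446 tests of a single library far from the other 3 of its group, 24 passed Dixon's 95% critical value for 4 samples, where chance gives about 1 in 20. The share that passed was close to that of chance, so the genes below are listed as description only. The value given for each gene is the gap to the nearest library divided by the range of the group. AKO 3 stood apart for 6 genes. It was high for Acsm3 (0.865), Igfbp4 (0.838), Akt1 (0.847), Fads1 (0.880) and Fads2 (0.875), and low for Pla2g5 (0.836). AKO 4 stood apart for 4, high for Ptprf (0.967) and Nid2 (0.902) and low for St3gal6 (0.888) and Trf (0.832). AKO 1 was low for Kcnj15 (0.884) and AKO 2 high for Nt5e (0.903).

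WT 3 stood high for 5 genes, namely Aacs (0.925), Fads2 (0.887), Acsf2 (0.888), Aldh4a1 (0.921) and Gsta4 (0.877). WT 2 stood apart for 4, low for Abcd3 (0.851) and Sema3c (0.912) and high for Gadd45a (0.859) and Snai3 (0.890). WT 4 was high for Plin5 (0.915) and low for 2010016I18Rik (0.940), and WT 1 was low for Dusp4 (0.938). For Ptprf, a receptor phosphatase gene, AKO 4 had 2447 normalized counts against 1603 to 1631 in the other AKO libraries.

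The female minus male difference of log2 fold passed the edgeR interaction test for 5 genes. It was -1.30 for Mfsd7c, -0.64 for Fads1, -0.73 for Rgs7, -1.20 for Srgap3 and -2.38 for Zim1. Zim1 itself was not called in females (46.9 ± 7.37 and 119 ± 63.7 normalized counts, edgeR adjusted p = 0.0955). At an unadjusted p of 0.05 the interaction passed for 35 of the 290 genes.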

How the results depend on the processing

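Against 210 higher and 115 lower calls, TMM scaling within the table gave 153 and 270, DESeq2 size factors 125 and 315, and the table total 95 and 337; DESeq2's Wald test gave 407 and 332. Filtering and thinning stayed within 1.5 times. Leaving out the 10 epithelial markers takes away only their own 4 lower calls, so it is no test of the other genes. Leaving out 1 library gave 106 to 241 higher and 47 to 182 lower. For the sex by genotype term, 5 genes became 9 with TMM and 9 with DESeq2, 7 with a replicate block within sex, and 2 to 7 without 1 library. The size factor difference of 0.584 ran from 0.456 to 0.662 without 1 library, each with the smallest p the 4 against 3 design allows, 0.0571 (exact permutation), so none could pass. No named gene changed sign under any alternative. With the replicate block, 94 higher and 38 lower genes passed, 129 of them also called without it. The labels number the mice 1 to 4 in each genotype. Deviations of same-numbered mice correlated at -0.30, -0.01, 0.18 and -0.14, and those of other pairs at -0.36 to 0.45. So few correlations cannot decide whether the numbers pair the mice. Depth limits genes near the floor (Gpr179, Acot3, Gm20125), whose folds depend on few WT reads. The sign of 6 genes with small folds turned with the table total, and of 0 after thinning. The cause of each shift was not tested, other than that every scaling tried uses only genes chosen as changed.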

Other observations

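Genes of nerve-like adhesion and guidance were represented by 12 members, of which 5 rose and 2 fell. The calls were 2 and 2 with TMM, 2 and 4 with DESeq2 size factors and 1 and 4 with the table total, and 0 to 5 were called higher without 1 library. Cntnap1, a contactin partner, fell by 0.60 on the log2 scale (lost in 1 of 8 fits). Among kinase and phosphatase genes, Ptpn4, a tyrosine phosphatase gene, went from 179, 214, 162 and 235 to 399.6, 429, 459 and 547, without overlap and in all 8 fits. Zfp949, a zinc-finger gene of unknown target, rose 3.06-fold from 415 ± 53.8 to 1261 ± 347. Of 18 integrin, junction and cytoskeleton genes 5 rose and 4 fell, against 4 and 9 with TMM and 1 and 10 with either other scaling. Kif5c, a kinesin motor gene, was 2.06-fold lower (lost in 1 of 8 fits) and Myh14, a non-muscle myosin gene, 1.74-fold lower in all 8 fits. Of 37 unnamed and predicted transcripts 10 rose and 4 fell, against 9 and 12 with TMM, 9 and 14 with DESeq2 size factors and 8 and 15 with the table total. Of these 4930480G23Rik had 17.4, 8.13, 4.07 and 21.6 in WT and 153, 114, 85.1 and 240.4 in AKO.

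The following 4 lists were put together after values were seen and are given as description. All 17 lysosomal genes in the table had a higher fold. Their median log2 fold was 0.38, against 0.30 for all 790 genes with the falls among them. The median size of all genes with a higher fold was 1.45-fold, not on the log2 scale. Of the 17, 6 were called. Pla2g15, the lysosomal phospholipase gene, held in all 8 fits (1381 ± 26.9 to 2363 ± 102), while the others (Dram2, Tcn2, Ctsl, Glb1 and Ctsz) did not. Under the other scalings 1 or 2 of the 17 were called. Of 6 genes of branched-chain amino acid and propionate breakdown 5 had a lower fold, and Ehhadh was called; under each other scaling 5 were called lower. Of 12 receptor genes outside the G-protein family, the transferrin receptors Tfrc and Tfr2 among them, 5 rose and 2 fell, and under each other scaling 1 was called higher and 4 lower. Epithelial junction and serine protease genes numbered 35, of which 34 had a lower fold and 15 were called lower (26 to 31 under the other scalings, and 5 to 28 without 1 library). Mlph, a pigment and secretory granule linker gene, and Myh14 were among those that held in all 8 fits. Jup, the plakoglobin gene, was the exception, 1.32-fold higher (not called with DESeq2 size factors or the table total) at 5127, 4689, 4887 and 4618 in WT and 6421, 6307, 6356 and 6389 in AKO. Of the 35 genes, 3 were in the male inguinal list and 8 in the male perigonadal list, all in the same direction as here.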
